A study of Mus musculus with 68 samples.

Results

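The genes described here are the nuclear genes of oxidative phosphorylation in the mouse. They were chosen by name and by measured level: their symbol in the expression table starts with Nduf, Uqcr, Atp5 or Cox4 to Cox8 and is not marked as a pseudogene, and their mean over all 68 libraries was at least 5 CPM (counts per 1000000 reads). Of 37991 genes in the table, 87 carried such a symbol and 74 reached that level, while 13 did not. By their symbols, 32 of the 74 encode subunits of complex I, 8 of complex III, 14 of complex IV and 13 of complex V, and 4 (the Ndufaf genes) encode assembly factors of complex I. The remaining 3 were counted apart from the complexes. Cox4nb is named Emc8 in RefSeq and belongs to a membrane complex of the endoplasmic reticulum. Atp5s and Atp5sl are named Dmac2l and Dmac2 there. Members just inside the limit were Ndufaf1 with a mean of 5.40 CPM and Ndufs3 with 5.72 CPM, and those just outside were Ndufb6 with 4.91 CPM and Ndufa12 with 3.52 CPM.

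In oxidative phosphorylation, complexes I, III and IV of the inner mitochondrial membrane pass electrons to oxygen and move protons out of the matrix, and complex V, the ATP synthase, uses the returning protons to make ATP. Some core subunits of each of these complexes are encoded in mitochondrial DNA, and all the others are made from nuclear genes, so both genomes supply 1 machine. Endothelial cells are known to draw much of their ATP from glycolysis, and those of brain capillaries are known to be richer in mitochondria than those of many other organs.

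The study sequenced RNA of endothelial cells sorted from healthy organs and from injured brain or spinal cord, in 68 libraries of 25 groups. Healthy groups were endothelial cells of heart, kidney, lung and liver, brain cells named brain vascular, and brain endothelial cells named brain endo (n = 2 each), with whole brain (n = 4). Injury groups were brain endothelial cells in epilepsy, in stroke by occlusion of the middle cerebral artery (MCAO) and in traumatic brain injury (TBI), and spinal cord endothelial cells in EAE (experimental autoimmune encephalomyelitis), an immune attack on myelin. A control group and groups at the acute, subacute and chronic stage (n = 3 each) made up a model, and TBI had a control group for each stage, of n = 3 at the acute and n = 2 at the later stages. The brain endo libraries came from forebrain of adult male Rosa-tdTomato; VE-Cadherin-CreERT2 mice, in which a Cre driven by the VE-Cadherin promoter turns on tdTomato in endothelial cells; the mice received 100 ul of tamoxifen at 20 mg/ml on 3 days, 10 days before the cells were taken. The labels name no genotype, strain, age, sex, inducing agent or day after injury for the other groups. Their protocol names sorting of endothelial cells into Trizol, also for whole brain, whose low endothelial markers (below) are not those of the sorted groups. Region and model cannot be told apart for spinal cord, which occurs only in EAE, and marker, mouse line and preparation cannot be told apart between brain endo and brain vascular. The labels do not say that replicates are separate animals, so p-values refer to the spread among libraries of a group, which may be technical.

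Depth was 18.78 to 38.76 M reads per library (M stands for 1000000), with a median of 27.3 M reads. The 10 endothelial markers checked, Pecam1 and Cdh5 among them, summed to 6222 to 14330 CPM in the libraries of sorted cells and to 116 to 168 CPM in whole brain, and none was at 0 in any group. Ribosomal RNA of mitochondria took 12.23 to 51.79% of reads. Some libraries stood apart before any comparison. Whole brain replicate 4 had 51.79% of such rRNA and 2150 CPM over the 74 genes, where the highest whole brain library had 6034 CPM. EAE acute replicate 1 had 34.37% of such rRNA, where the lowest library of its group had 12.23%. The 2 lung libraries differed, at 5491 and 3630 CPM over the 74 genes. In bulk samples, fewer cells of a type and less RNA per cell cannot be told apart, which holds for every difference below.

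The median level was 25.1 CPM per kilobase (kb) over all members. By complex the medians were 51.7 CPM per kb for complex V, 49.6 for complex IV, 26.4 for complex III, 22.6 for complex I and 6.72 for the complex I assembly factors. Atp5b, the catalytic beta subunit of the ATP synthase, was the most abundant at 471 CPM per kb, followed by Cox6a1 at 191 and Cox4i1 at 155 CPM per kb, both of complex IV. Atp5g1, one of several genes for subunit c of the ATP synthase rotor, was lowest at 1.76 CPM per kb. Lengths were those of a gene's longest principal transcript in GENCODE, and 41 of the 74 were at most 1 kb, so a gene such as Atp5g1, with a principal transcript of 4.71 kb, may be set too low. Across the 68 libraries Atp5b had a coefficient of variation of 22.0%, the lowest among the members. Uqcr11 of complex III, with 85.9%, and Ndufa4l2, with 82.8%, varied most.

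**Figure D1:**
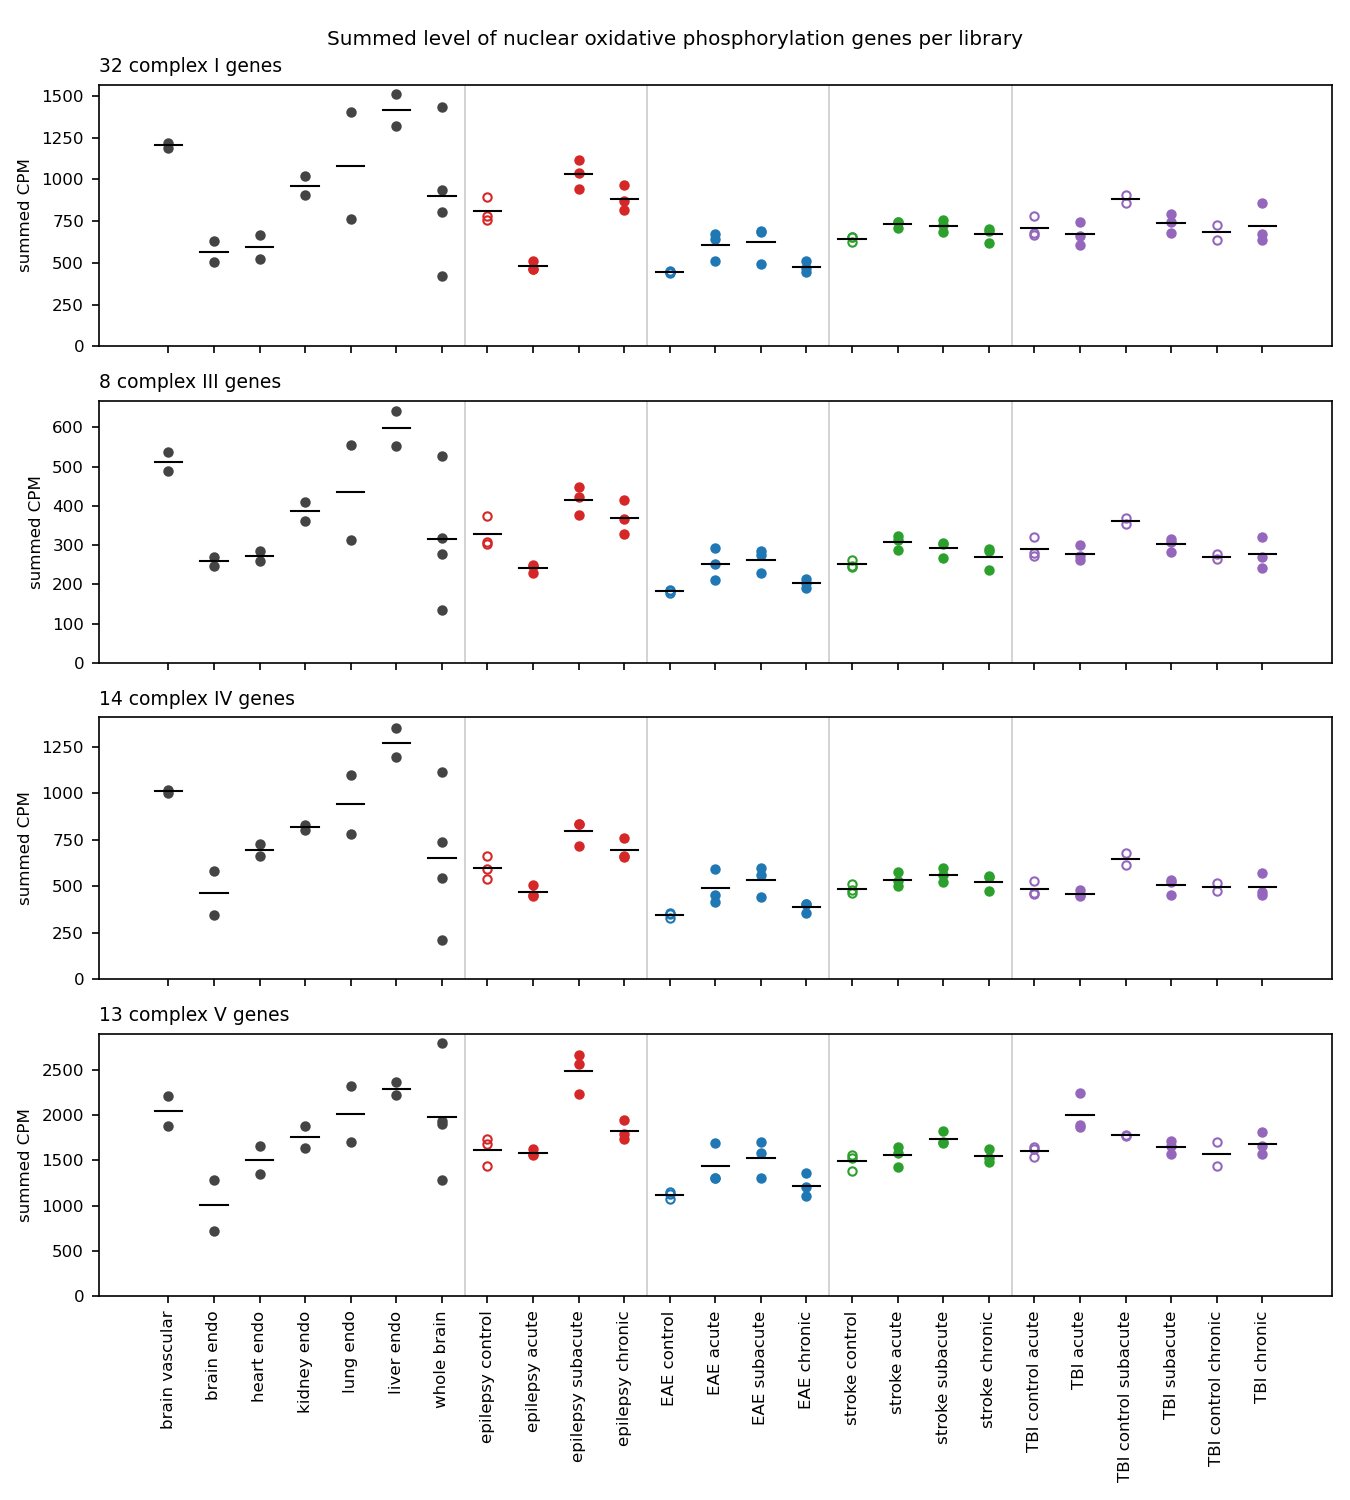
Summed CPM of the members of complexes I, III, IV and V (vertical axes, from 0) in each library (points) of the 25 groups (horizontal axis), with bars at group means and open points for injury controls. Among the injury groups the complex I sum is lowest in EAE controls at 446 CPM and in acute epilepsy at 480 CPM, and the complex V sum is highest in subacute epilepsy at 2493 CPM.

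Promoters of 61 members were found among RefSeq gene starts (build GRCm38.p6), and 250 bases before each start were searched on both strands for letters known as binding sites of regulators of these genes. The letters GCGCATGC (or GCATGCGC), the core of sites of nuclear respiratory factor 1 (NRF1), occurred in 6 of 61 members (9.84%), compared with 2.56% of all 27025 RefSeq promoters of this length. CCGGAAG, an ETS factor core, occurred in 10 of 61 (16.4%), compared with 7.83%, and CCAAT, the NF-Y core, in 27 of 61 (44.3%), compared with 37.5%. No test was made of these shares, and a match is letters in a window, not a measured site. Shown are the promoters with the NRF1 letters of members that passed the test in both acute epilepsy and subacute EAE (Cox6a1, Ndufa8 and Atp5k), with that of Atp5b, the most abundant member, which holds none. They were chosen after their values were seen. Each runs 5′ to 3′ on the gene's strand and ends at the base before the start, and capitals mark the letters above on either strand. The Cox6a1 promoter is chr5:115348959-115349208, minus strand, that of Ndufa8 chr2:36049339-36049588, minus strand, that of Atp5k chr5:108434400-108434649, minus strand, and that of Atp5b chr10:128083057-128083306, plus strand. In Cox6a1 and Atp5k the NRF1 letters of both strands overlap in 1 run of capitals.
Cox6a1: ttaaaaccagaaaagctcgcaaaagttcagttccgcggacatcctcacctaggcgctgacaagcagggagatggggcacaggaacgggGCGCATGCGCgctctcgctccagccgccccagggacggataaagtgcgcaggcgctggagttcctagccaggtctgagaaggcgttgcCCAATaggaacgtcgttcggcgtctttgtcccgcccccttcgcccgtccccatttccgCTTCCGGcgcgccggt
Ndufa8: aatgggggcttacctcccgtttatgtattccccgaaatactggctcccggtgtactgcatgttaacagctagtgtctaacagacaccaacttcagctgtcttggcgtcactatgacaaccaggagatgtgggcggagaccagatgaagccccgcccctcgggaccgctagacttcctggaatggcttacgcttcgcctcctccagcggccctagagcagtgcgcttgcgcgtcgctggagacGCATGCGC
Atp5k: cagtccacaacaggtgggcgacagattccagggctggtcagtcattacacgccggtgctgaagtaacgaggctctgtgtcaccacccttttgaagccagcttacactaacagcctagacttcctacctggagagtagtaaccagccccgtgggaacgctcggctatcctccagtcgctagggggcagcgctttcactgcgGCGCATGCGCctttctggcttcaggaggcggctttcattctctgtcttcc
Atp5b: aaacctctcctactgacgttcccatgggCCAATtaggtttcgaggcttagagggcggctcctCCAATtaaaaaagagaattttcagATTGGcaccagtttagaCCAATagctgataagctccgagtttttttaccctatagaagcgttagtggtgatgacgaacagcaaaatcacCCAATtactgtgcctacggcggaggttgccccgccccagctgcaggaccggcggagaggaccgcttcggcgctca
Among the members with no entry were Atp5a1, Cox4i1, Uqcrc2, Ndufb9, Ndufs1, Uqcrq, Cox6c, Cox4nb, Ndufa2, Ndufa4l2, Uqcrb and Cox4i2.

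Among the 4 peripheral organs, the sum of the 74 genes was lowest in heart endothelial cells and its mean highest in those of liver. Summed over the members, heart libraries were at 2853 and 3399 CPM, kidney libraries at 3784 and 4240 CPM, and liver libraries at 5378 and 5981 CPM, so these 3 organs did not overlap. The lung libraries spanned the kidney values and reached into the liver range. The complex I sum was 521 and 666 CPM in heart, and 1321 and 1513 CPM in liver. The transcripts of mitochondrial DNA had another order: they summed to 20823 and 22797 CPM in heart, the highest of these organs, and to 12776 and 16562 CPM in liver.

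Each organ was tested against the mean of the other peripheral organs by limma on log2(CPM + 1), with a gene called at an adjusted p under 0.05 over all genes tested; these 4 tests share libraries. In heart, 7 of 74 members were lower and 0 higher, where 10.7% of all genes tested were lower, so the count is near that share. The median log2 fold of the members was -0.77, that of all genes -0.12. Those called were in complex I (4 of 32), its assembly factors (2 of 4) and complex III (1 of 8). Ndufaf1, which helps build the membrane arm of complex I, was at 1.13 and 1.67 CPM in heart, 5.24 and 10.1 in kidney, 3.92 and 3.99 in lung and 10.3 and 6.46 in liver (log2 fold -1.60 ± 0.31 SE, adjusted p = 0.00269). Ndufs4, an accessory subunit whose loss is known to cause a Leigh-like disease in mice, was at 7.68 and 16.1 CPM in heart and from 20.5 to 54.9 CPM in the other organs (log2 fold -1.36 ± 0.29, adjusted p = 0.00556). Heart libraries of both genes were below every library of kidney, lung and liver. Ndufaf4, another assembly factor, was at 6.999 and 9.55 CPM in heart and from 13.6 to 30.8 CPM in the others (log2 fold -1.26 ± 0.30, adjusted p = 0.0105). The count in heart rested on single libraries: it was 0 without heart replicate 1, 4 without heart replicate 2 and 4 without liver replicate 1. Of 73 tested genes of the mitochondrial ribosome, 15 were lower in heart and 0 higher. Of the heart muscle markers, 10 of 10 were higher in heart. They summed to 197 to 205 CPM there, compared with 5.45 to 34.1 CPM in the other organs. Their part was not tested.

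In liver endothelial cells 7 members were higher and 2 lower, where 7.60% of all genes tested were higher and 18% lower. The count of higher members is near that share. The members' median log2 fold was 0.66 and that of all genes -0.10. The higher members were of complex I (4), its assembly factors (2) and complex III (1). Heart is among the organs that liver was tested against, and liver among those for heart, so these tests are not independent. Ndufs4 was at 54.9 and 40.6 CPM in liver (log2 fold 1.29 ± 0.29, adjusted p = 0.00473), and Ndufb9, an accessory subunit of complex I, at 87.3 and 70.6 CPM (log2 fold 1.26 ± 0.38, adjusted p = 0.0262). Both were above every library of heart, kidney and lung. Ndufaf1 was at 1.00 ± 0.31 on the log2 scale (adjusted p = 0.0286), with a kidney library of 10.1 CPM inside the range of the liver libraries. The 2 lower members were Cox4i2 and Ndufa4l2, described below. Under quantile normalization 21 members were higher and 1 lower, in edgeR 23 and 1, with mitochondrial rRNA left out 15 and 1, and without the filter on low values 2 and 1. The share of all genes called in these settings is not given here, so these counts are not read as a trait of the members. The count of 9 was 2 without heart replicate 1, 4 without kidney replicate 1, 4 without lung replicate 2, 1 (lower) without liver replicate 1 and 3 without liver replicate 2. Hepatocyte markers summed to 114 to 272 CPM in liver and 1.46 to 131 CPM in the other organs, and macrophage markers to 144 to 402 CPM in liver and 34.8 to 167 CPM in the others; their part in the result was not tested.

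In kidney no member passed in limma (0 of 74, where 16.9% of all genes tested were called in either direction), 1 had an unadjusted p under 0.05, and edgeR called 0. In lung the only member called was Cox4i2, higher, where 11.8% of all genes were called in either direction. This call was absent without lung replicate 1, in edgeR and with a pseudocount of 0.1.

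The genes chosen to stand for each complex (Ndufs1, Ndufv1, Uqcrc1, Uqcrfs1, Cox5a, Atp5a1 and Atp5b) were not called in any organ. Uqcrc2 of complex III, which is not among them, was called higher in liver (log2 fold 0.83 ± 0.27, adjusted p = 0.038 in limma). Ndufs1, the largest iron-sulfur subunit of complex I, ranged from 26.0 to 39.4 CPM over the 8 peripheral libraries, and Ndufv1, which binds NADH, from 19.7 to 75.4 CPM. In complex III, Uqcrc1 ranged from 23.7 to 67.8 CPM and the Rieske subunit Uqcrfs1 from 26.1 to 43.8 CPM. Cox5a of complex IV ranged from 17.5 to 36.2 CPM, and the alpha and beta subunits of complex V from 222 to 396 CPM for Atp5a1 and from 623 to 1107 CPM for Atp5b.

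Several complex IV genes exist as tissue isoforms. Cox4i2, the isoform of Cox4 known from rodent lung and from pericytes, was at 35.97 and 23.2 CPM in brain vascular cells, 14.1 and 5.67 in lung, 5.83 and 2.54 in kidney, 3.35 and 4.15 in heart, 1.86 and 4.49 in brain endo and 0.681 and 0 in liver. Ndufa4l2, a paralog of Ndufa4 known to be induced by hypoxia, was at 47.6 and 38.1 CPM in brain vascular cells and between 0.303 and 7.84 CPM in every other healthy library of organs and brain endo. Both were higher in brain vascular cells than in the other organ, brain endo and whole brain libraries. Among controls of the injury models, Cox4i2 reached 26.4 CPM in epilepsy and 24.2 CPM in TBI, inside the range of the brain vascular libraries, and Ndufa4l2 reached at most 24.1 CPM, in TBI. Per kilobase, Cox4i2 made up 12.6 ± 3.77% (SD, n = 2) of the sum of Cox4i1 and Cox4i2 in brain vascular cells, 4.34 ± 1.68% in lung, 3.70 ± 1.30% in brain endo and 0.116 ± 0.164% in liver. Cox4i1 itself was at 208 and 219 CPM in brain vascular cells and 305 and 278 CPM in liver.

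Against the mean of the 4 peripheral organs, these 2 genes were the only members called in brain vascular cells, both higher, where 6.75% of all genes tested were higher. The log2 fold was 2.84 ± 0.38 for Cox4i2 (adjusted p = 7.2e-05) and 3.52 ± 0.51 for Ndufa4l2 (adjusted p = 0.000151). The members' median was 0.26. Lung was above the other peripheral organs for Cox4i2 (log2 fold 1.69 ± 0.39, adjusted p = 0.00968), and liver was below them for Cox4i2 (log2 fold -2.25 ± 0.39, adjusted p = 0.000645) and Ndufa4l2 (log2 fold -1.57 ± 0.53, adjusted p = 0.0418). Mural cell markers were high in brain vascular cells too: 10 of 10 were higher there than in the organs, and they summed to 3882 to 4928 CPM. The same sum was 651 to 734 CPM in brain endo, 634 to 683 CPM in heart and 216 to 435 CPM in kidney. It was 98.5 to 153 CPM in lung and 135 to 259 CPM in liver, with Higd1b at 0 in liver. Among the 4 organs the markers did not follow Cox4i2, whose mean was highest in lung, where the lowest mural sum lay. The part of mural cells in the result was not tested. With brain endo in place of brain vascular cells, 24 members were called, 1 higher and 23 lower, and the log2 fold of Cox4i2 was -0.07. The share of all genes called with brain endo is not given here, so this count is not read as a trait of the members.

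**Figure D2:**
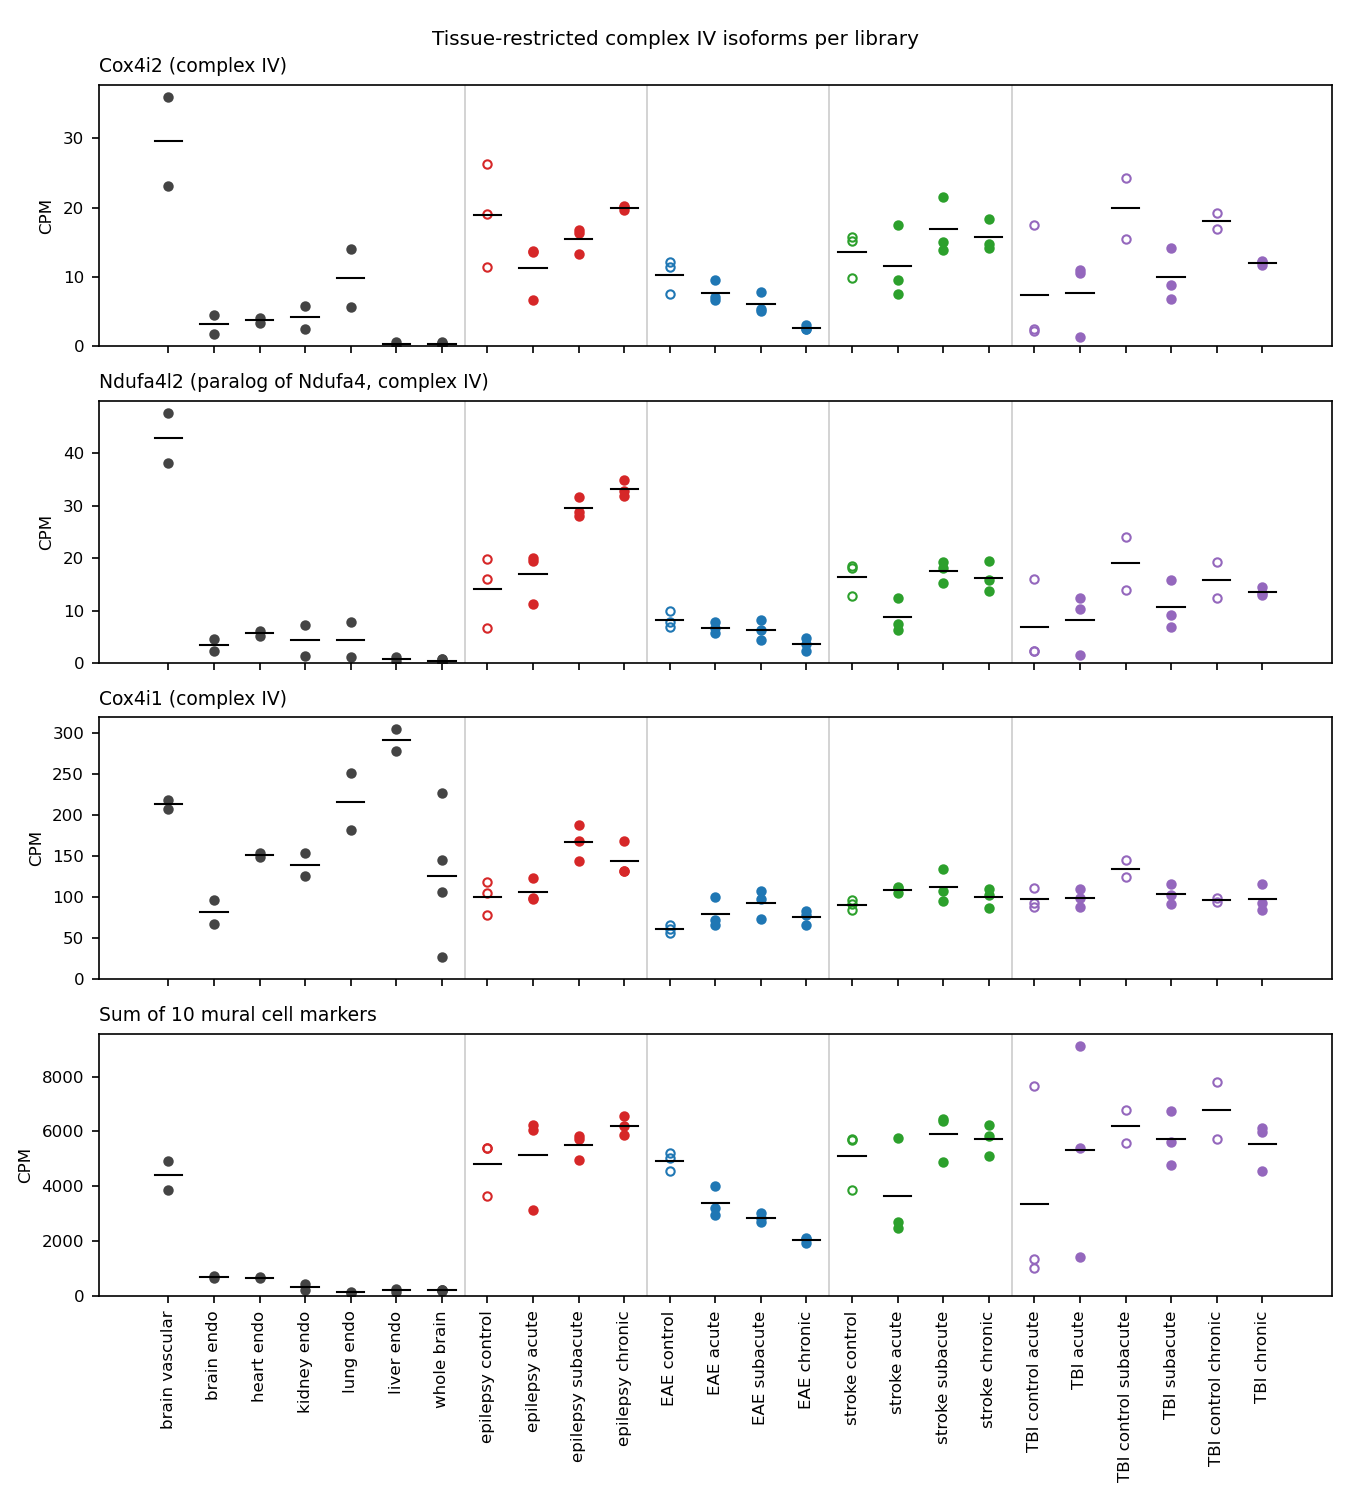
CPM of Cox4i2, Ndufa4l2 and Cox4i1 and the summed CPM of 10 mural cell markers (vertical axes, from 0) in each library (points) of the 25 groups (horizontal axis), with bars at group means and open points for injury controls. Group means of Cox4i2 and Ndufa4l2 are highest in brain vascular cells, where the mural markers sum to 3882 to 4928 CPM, while Cox4i1 is highest in liver.

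The other isoforms were scarce and below the limit for members. Cox6a2, the heart and muscle isoform of Cox6a, was at 5.76 and 3.71 CPM in heart libraries and at most 0.560 CPM in the other organs, and Cox8b, also of heart muscle, at 2.97 and 1.37 CPM in heart and at most 0.630 CPM in the others. The part of the heart muscle markers given above in these values was not tested. The partners Cox6a1, at 147 and 164 CPM, and Cox8a, at 49.1 and 44.5 CPM, were the main forms in heart as elsewhere. Cox7a1, the muscle partner of Cox7a2, was between 0.063 and 1.97 CPM over the healthy libraries. Cox6b2 and Cox8c, known from testis, had means of 1.10 and 0.002 CPM over all libraries. Of the genes for subunit c, Atp5g3 was at 75.7 to 124 CPM in the peripheral organs and brain vascular cells, Atp5g1 at 5.22 to 17.2 CPM and Atp5g2 at 0.126 to 1.71 CPM.

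Brain vascular cells were above brain endo for 10 members and below for 0, where 4.12% of all genes tested were higher, and the members' median log2 fold was 1.02. Beside Cox4i2 (log2 fold 2.91 ± 0.48, adjusted p = 0.00288) and Ndufa4l2 (3.35 ± 0.64, adjusted p = 0.00798), the strongest call was Atp5c1, the gamma subunit that turns inside complex V. Atp5c1 was at 187 and 176 CPM in brain vascular cells and 26.9 and 70.9 CPM in brain endo (log2 fold 2.03 ± 0.43, adjusted p = 0.0129). The brain endo libraries themselves lay far apart for Uqcr11, which was at 0.959 and 10.4 CPM in them and at 36.1 and 45.5 CPM in brain vascular cells. The count was 26 without brain endo replicate 2, 1 without brain endo replicate 1, and 1 and 3 without brain vascular replicates 1 and 2.

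Against whole brain, brain vascular cells were higher for 18 members and lower for 5, where 25.3% of all genes tested were higher and 31.9% lower. After Cox4i2 (4.49 ± 0.41, adjusted p = 3.18e-07) and Ndufa4l2 (4.94 ± 0.56, adjusted p = 2.77e-06), the strongest call was Ndufa7 of complex I, at 92.9 and 88.3 CPM compared with 30.5, 13.3, 19.3 and 6.51 CPM in whole brain (log2 fold 2.50 ± 0.46, adjusted p = 0.000319). Atp5g1 was lower, at 5.22 and 7.33 CPM compared with 40.1, 22.9, 24.1 and 14.05 CPM (log2 fold -1.78 ± 0.38, adjusted p = 0.00112), as were Ndufb2 (-1.12 ± 0.32), Atp5s (-1.38 ± 0.40), Ndufs1 (-0.94 ± 0.28) and Ndufa10 (-0.80 ± 0.28). The whole brain libraries of Ndufa7 and Atp5g1 did not overlap those of brain vascular cells. Of the genes of mitochondrial DNA, 5 of 7 tested were lower in brain vascular cells and 0 higher. The count of 23 was 12 and 11 without brain vascular replicates 1 and 2, 37 and 15 without whole brain replicates 1 and 2, and 18 without whole brain replicate 4, the library with the most mitochondrial rRNA. With mitochondrial rRNA left out, 12 members were higher and 8 lower. With brain endo in place of brain vascular cells the count was 22, of which 3 were higher and 19 lower. The share of all genes called in that setting is not given here either.

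Control endothelial cells of spinal cord, from the EAE model, were below the controls of the brain models for most members: 61 were lower and 1 higher, where 19.3% of all genes tested were lower and 26.1% higher. The median log2 fold of the members was -0.62 and that of all genes 0.05. Every complex held lower members, with 28 of 32 complex I genes, 4 of 4 assembly factors, 7 of 8 of complex III, 10 of 14 of complex IV and 11 of 13 of complex V lower. Ndufs7, an iron-sulfur subunit next to the quinone site of complex I, was at 10.7, 12.7 and 8.73 CPM in EAE controls, and from 14.99 to 32.8 CPM with a median of 20.25 CPM over the 13 brain control libraries (log2 fold -1.01 ± 0.12, adjusted p = 2.24e-08). Atp5c1 was at 59.1, 67.2 and 66.5 CPM, and from 90.85 to 177 CPM with a median of 130.4 CPM in brain controls (log2 fold -0.93 ± 0.12, adjusted p = 9.55e-08). Uqcr10, a small subunit of complex III, was at 12.5, 16.03 and 13.02 CPM, and from 20.7 to 41.3 CPM with a median of 25.6 CPM in brain controls (log2 fold -1.04 ± 0.13, adjusted p = 9.76e-08). For these genes all 3 spinal cord libraries lay below all 13 brain libraries, as they did for 46 of the 74 members, while 27 members overlapped. The same count was not made over all genes, so how unusual 46 of 74 is was not tested. The one member above all brain controls was Ndufb2 of complex I, at 11.5, 13.5 and 11.7 CPM compared with 5.61 to 11.48 CPM (log2 fold 0.57 ± 0.16, adjusted p = 0.00296).

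The genes chosen to stand for each complex were all called lower. Their log2 folds were -0.28 ± 0.11 for Ndufs1, -0.75 ± 0.11 for Ndufv1, -0.75 ± 0.15 for Uqcrc1 and -0.34 ± 0.11 for Uqcrfs1. For Cox5a the fold was -0.67 ± 0.15, for Atp5a1 -0.32 ± 0.10 and for Atp5b -0.49 ± 0.11. The isoforms Cox4i2 (adjusted p = 0.287) and Ndufa4l2 (adjusted p = 0.129) were not called. Other genes of the pathway were lower as well. Of the mitochondrial ribosome 51 of 73 genes were lower and 0 higher, among them Mrps21 (log2 fold -1.06 ± 0.12, adjusted p = 9.61e-09). Lower too were 8 of 13 genes of the citric acid cycle and 4 of 6 of complex II and cytochrome c, among them Sdhb (-0.78 ± 0.13, adjusted p = 7.18e-06). The latter list holds Sdha, Sdhb, Sdhc, Sdhd, Cycs and Cyc1. Cyc1 encodes cytochrome c1 of complex III, and its symbol lies outside the prefixes of the members. Genes of mitochondrial DNA were lower in 2 of 7 tested. Mitochondrial rRNA took 17.4 to 18.7% of reads in EAE controls and 23.6 to 41.7% in brain controls; with it left out of the totals, 66 members were lower and 1 higher. Leaving out each library in turn gave 53 to 63 members called. Region and experiment cannot be told apart here.

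**Figure D3:**
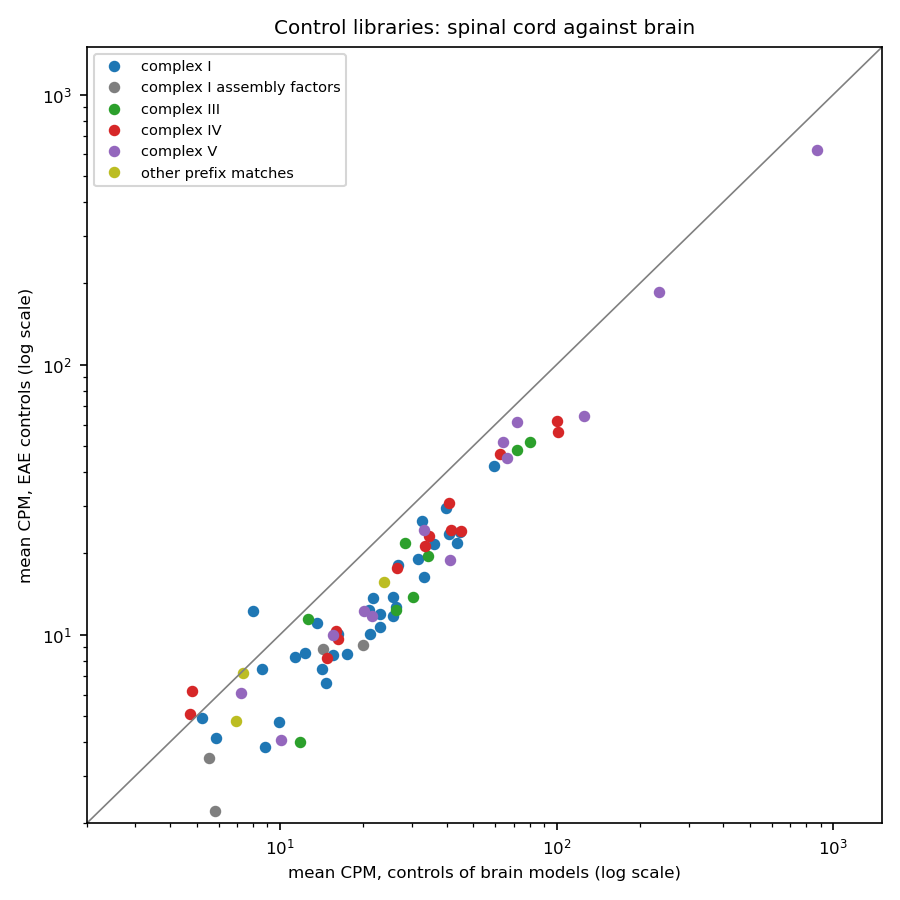
Mean CPM of each of the 74 members in EAE control libraries of spinal cord (vertical axis, log scale) against the mean over the controls of the epilepsy, stroke and TBI models of brain (horizontal axis, log scale), coloured by complex; the line marks equal levels. Most points lie below the line, with 61 members called lower and 1 called higher.

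In acute epilepsy most genes of complex I fell. In limma 44 of 74 members fell and 0 rose, where 30.9% of all genes tested fell and 11.6% rose. The members' median log2 fold was -0.58 and that of all genes -0.22. By complex, 22 of 32 complex I genes (median log2 fold -0.78) and all 4 assembly factors fell, and so did 4 of 8 genes of complex III (-0.43), 7 of 14 of complex IV (-0.44) and 5 of 13 of complex V (-0.26). Without the filter on low values 22 complex I genes but 1 of the 4 assembly factors were called, and with the replicate block 22 and 3; all 4 assembly factors had folds below 0. The complex I sum was 754 to 892 CPM in controls and 463 to 511 CPM in acute libraries, a ratio of means of 0.592, with no overlap. The complex III sum had a ratio of 0.734 and the complex IV sum 0.782, also with no overlap, whereas the complex V sum, at 1442 to 1734 CPM in controls and 1564 to 1621 CPM in acute libraries, had a ratio of 0.98 and overlapped.

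Among genes of complex I, Ndufaf3, an assembly factor, had the smallest adjusted p, and fell from 20.7, 28.7 and 24.8 CPM in controls to 7.22, 6.55 and 6.36 CPM in acute libraries (log2 fold -1.73 ± 0.18, adjusted p = 3.6e-06). Ndufv3, an accessory subunit of the NADH-oxidizing module, fell from 21.9, 27.7 and 22.7 to 8.14, 7.70 and 8.59 CPM (log2 fold -1.45 ± 0.16, adjusted p = 5.19e-06). Ndufa13, an accessory subunit also known as the cell death regulator GRIM-19, fell from 41.3, 39.04 and 26.1 to 11.1, 11.6 and 11.97 CPM (log2 fold -1.51 ± 0.17, adjusted p = 6.07e-06). In all 3 genes the acute libraries lay close together and below every control library. The core subunits Ndufs1 (log2 fold -0.67 ± 0.16, adjusted p = 0.0031) and Ndufv1 (-0.53 ± 0.15, adjusted p = 0.00939) fell as well, from 56.9, 51.3 and 45.2 to 33.1, 31.3 and 41.03 CPM for Ndufv1. Ndufa8, whose promoter is printed above because it passed here and in subacute EAE, fell from 18.8, 9.79 and 18.1 to 7.06, 6.55 and 6.23 CPM (log2 fold -1.07 ± 0.22). Of 37 members with a promoter entry that fell, 5 held the NRF1 letters (13.5%), and of the 24 others 1 (4.17%). The ETS letters were in 6 (16.2%) and 4 (16.7%) of them, and CCAAT in 19 (51.4%) and 8 (33.3%). These differences were not tested, and the share among all genes that fell was not computed.

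In complex III, Uqcr11 fell from 19.1, 18.4 and 13.99 to 4.49, 6.12 and 5.12 CPM (log2 fold -1.54 ± 0.20, adjusted p = 2.58e-05), while the Rieske subunit Uqcrfs1 was at 32.6, 34.2 and 27.4 CPM in controls and 28.4, 33.1 and 31.1 CPM in acute libraries (-0.02 ± 0.14) and Uqcrc1 at -0.25 ± 0.15 on the log2 scale, neither called. In complex IV, Ndufa4 (-0.82 ± 0.19), Cox7a2 (-0.66 ± 0.18), Cox8a (-0.55 ± 0.18) and Cox6a1 (-0.43 ± 0.12) fell, and Cox4i1 (0.10 ± 0.16), Cox5a (0.17 ± 0.17) and Ndufa4l2 (0.32 ± 0.29) did not pass. In complex V, the small epsilon subunit Atp5e fell from 60.1, 49.8 and 49.8 to 22.4, 26.2 and 24.1 CPM (log2 fold -1.10 ± 0.15, adjusted p = 4.44e-05), and the gamma subunit Atp5c1 fell from 157, 106 and 132 to 68.6, 65.9 and 83.01 CPM (-0.84 ± 0.14). The alpha subunit Atp5a1 was instead at 235, 179 and 272 CPM in controls and 297, 265 and 306 CPM in acute libraries (log2 fold 0.36 ± 0.15, adjusted p = 0.0602), and the beta subunit Atp5b was at 935, 799 and 905 and 914, 958 and 924 CPM (0.09 ± 0.12); neither was called. Atp5a1 and Atp5b libraries of the stages overlapped, and those of Atp5e and Atp5c1 did not.

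**Figure D4:**
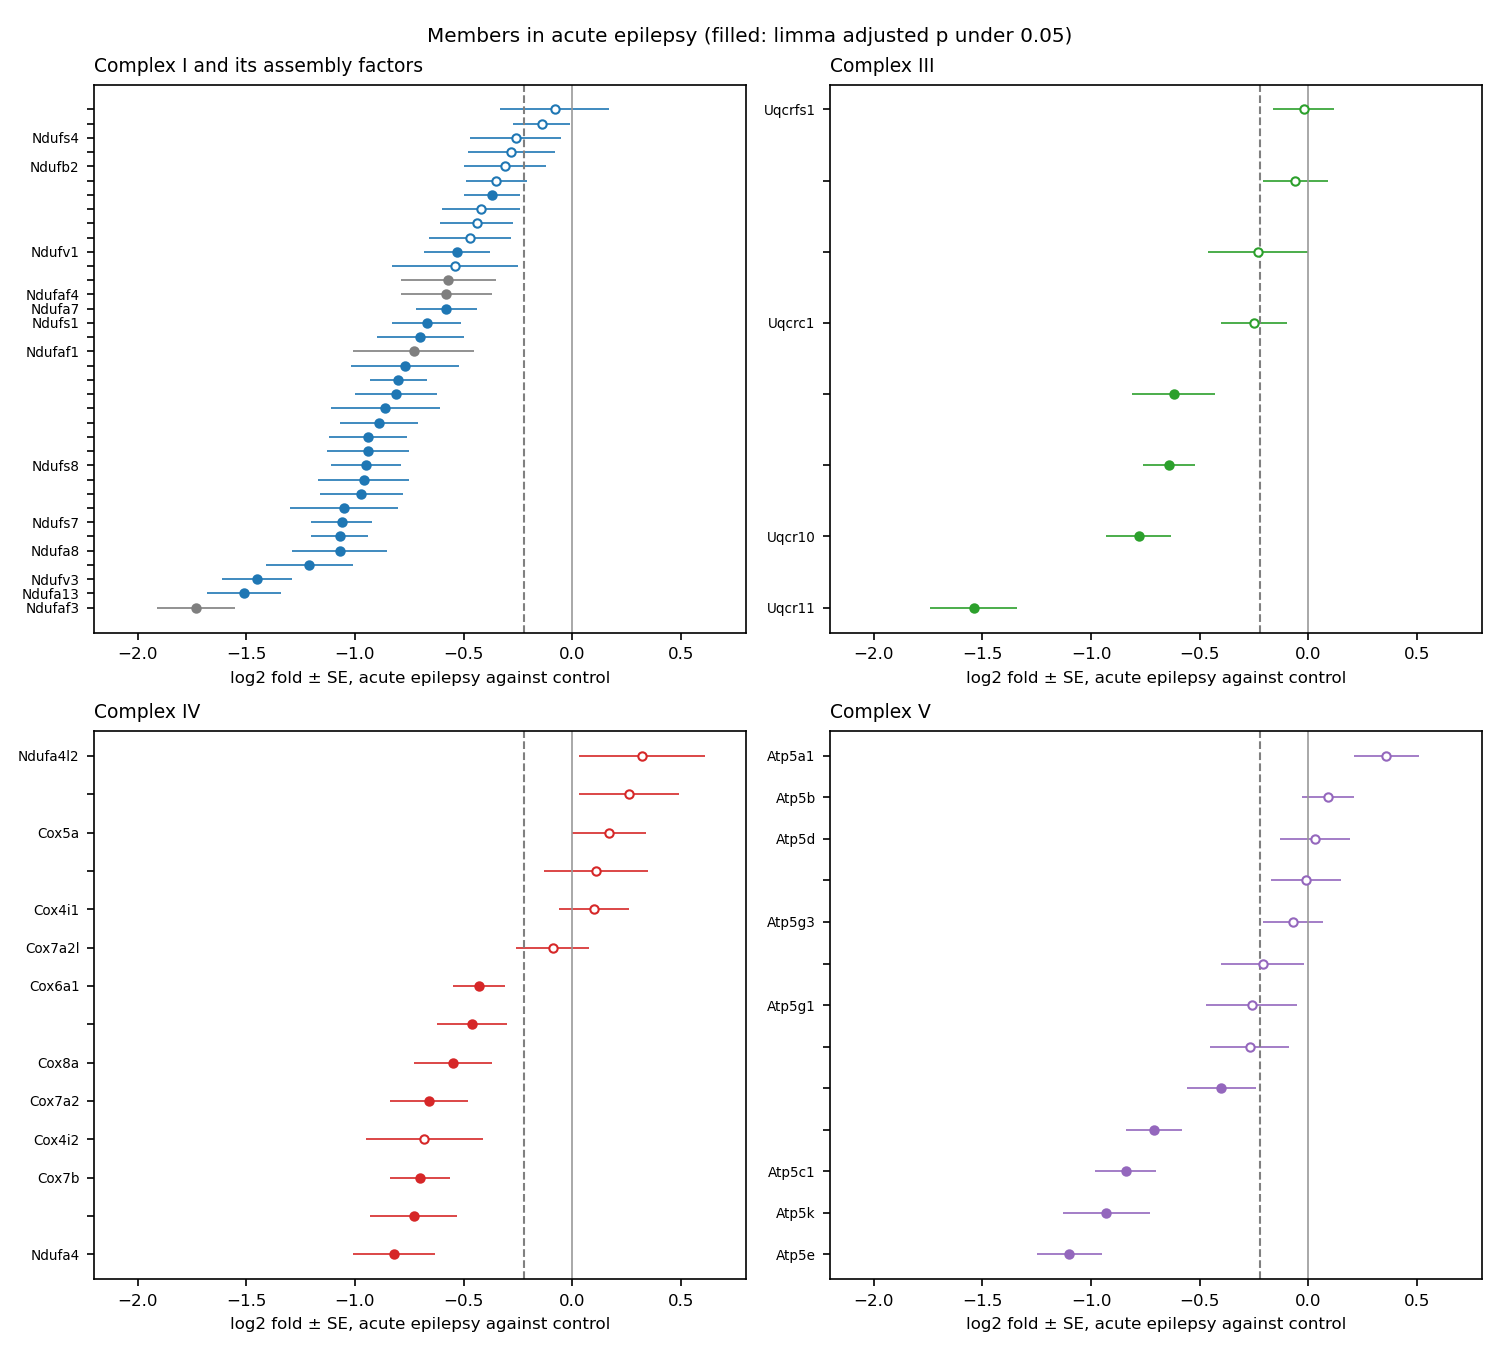
Log2 fold with its standard error (horizontal axis) of each member (vertical axis, with most genes described in the text labelled) in acute epilepsy against control, by complex; filled points passed the limma test, the solid line marks 0 and the dashed line the median of all genes tested at -0.22. Complex I genes and assembly factors lie below 0 throughout, while Atp5a1 and Atp5b of complex V lie above it without passing.

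The size of this fall depended on scaling. Quantile normalization, which brings the median of all genes to -0.01, gave a members' median of -0.31 with 26 lower and 2 higher (Cox7c and Cox5a), and edgeR gave 30 lower and 2 higher (Atp5a1 at 0.59 and Atp5b at 0.34). The share of all genes called in these settings is not given here, so these counts are not read as an excess among the members. Leaving out each library in turn gave 34 to 46 members called. Among other genes of mitochondria, to be read against the 30.9% of all genes that fell, the genes that fell were 34 of 73 genes of the mitochondrial ribosome, with 2 higher, 4 of 6 genes of complex II and cytochrome c, among them Sdhb (-0.92 ± 0.19, adjusted p = 0.0013), 3 of 13 of the citric acid cycle, among them Idh3a (-1.06 ± 0.18, adjusted p = 0.000294), and 3 of 7 tested genes of mitochondrial DNA. Endothelial markers summed to 9440 to 10440 CPM in controls and 12250 to 13100 CPM in acute libraries, with 4 of 10 higher and 3 lower. Astrocyte markers summed to 71.4 to 102 CPM in controls, with Aldh1l1 at 0, and to 157 to 167 CPM in acute libraries, with 1 of 7 tested higher; their part in the result was not tested.

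At the subacute stage of epilepsy no member was called below control, and most were above the acute stage. From the acute to the subacute stage 61 of 74 members rose and 0 fell, where 37.9% of all genes tested rose; the members' median log2 fold was 0.87 and that of all genes 0.33. Ndufs8, an iron-sulfur subunit of complex I, went from 10.6, 10.8 and 12.2 to 39.8, 35.05 and 46.1 CPM (log2 fold 1.75 ± 0.16, adjusted p = 8.12e-07), Ndufv3 reached 34.05, 25.97 and 27.4 CPM (1.71 ± 0.16) and Cox7b, a small subunit of complex IV, rose from 19.3, 18.3 and 23.7 to 63.8, 52.02 and 59.4 CPM (1.47 ± 0.14). No library of the stages overlapped in these genes. The members that did not pass included Uqcrfs1 (0.34 ± 0.14), Cox5a (0.40 ± 0.17), Atp5g1 (0.22 ± 0.21) and Cox4i2 (0.47 ± 0.27). Quantile normalization gave 43 higher and 2 lower (Cox5b and Cox7c), and edgeR 43 higher. In the same step 53 of 73 genes of the mitochondrial ribosome and 11 of 13 of the citric acid cycle rose.

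Against control, 20 members rose in subacute epilepsy and 0 fell, where 11.0% of all genes tested rose (median 0.31 for the members and 0.07 for all genes). Of complex V 5 of 13 genes rose, with 5 of 14 of complex IV, 8 of 32 of complex I, 1 of 8 of complex III and 1 of 4 assembly factors. Atp5a1 rose from 235, 179 and 272 to 470.1, 388 and 429 CPM (log2 fold 0.92 ± 0.15, adjusted p = 0.000692), the delta subunit Atp5d from 49.9, 71.5 and 71.5 to 127, 107 and 127 CPM (0.90 ± 0.16, adjusted p = 0.00125), and Cox7b from 33.2, 35.4 and 32.4 CPM in controls (0.77 ± 0.14, adjusted p = 0.00159). All subacute libraries of these genes were above all controls. Atp5b, at 1427, 1219.7 and 1419 CPM, Cox4i1, Cox5a, Uqcrc1 and Ndufa4l2 were also among the genes that rose, while Ndufv1 (-0.07 ± 0.15), Ndufs1 (0.28 ± 0.16) and Uqcrfs1 (0.31 ± 0.14) did not pass. The complex V sum was 2238 to 2671 CPM, a ratio of 1.54 to control, and that of complex I had a ratio of 1.27; transcripts of mitochondrial DNA had a ratio of 0.842. Citric acid cycle genes rose in 6 of 13, led by citrate synthase Cs (0.84 ± 0.13, adjusted p = 0.000693). The count of 20 was 31 without control replicate 1, 11 without subacute replicate 1 and 12 without subacute replicate 3, and subacute and acute groups share their controls. In chronic epilepsy limma called 0 members (0.0655% of all genes in either direction), 11 had an unadjusted p under 0.05, edgeR called 0, and 1 was called without control replicate 2 or 3.

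In acute EAE 68 of 74 members had a log2 fold above 0, with a median of 0.45 where all genes had 0.05. Only Ndufa4, at 26.8, 21.5 and 24.1 CPM in controls and 60.7, 48.8 and 38.9 CPM in acute libraries (log2 fold 0.99 ± 0.22, adjusted p = 0.0499), passed, where 1.25% of all genes were called in either direction; 38 members had an unadjusted p under 0.05, and edgeR called 0. That call was lost on leaving out any library but acute replicate 3, and 5 members were called without that one. Without acute replicate 1, the library rich in mitochondrial rRNA, the count was 0.

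In subacute EAE 14 members rose and 0 fell, where 8.06% of all genes tested rose, with a median log2 fold of 0.48 for the members and 0.01 for all genes. They were spread over complex I (4 of 32), complex III (1 of 8), complex IV (4 of 14), complex V (4 of 13) and the assembly factors (1 of 4). Ndufa8, an accessory subunit of complex I, went from 6.89, 8.28 and 7.16 to 19.9, 15.4 and 18.8 CPM (log2 fold 1.17 ± 0.19, adjusted p = 0.00272). Uqcr10 of complex III went from 12.5, 16.03 and 13.02 to 33.5, 22.8 and 32.5 CPM (1.03 ± 0.20, adjusted p = 0.00678), and Ndufa4 of complex IV to 52.03, 37.1 and 58.8 CPM (0.98 ± 0.22, adjusted p = 0.0147). In these 3 genes all subacute libraries were above all controls. Atp5k and Cox6a1, the other genes with a printed NRF1 promoter, were chosen for passing here and in acute epilepsy. Their place among the 14 was therefore set by that choice. Atp5k went from 3.73, 4.22 and 4.25 to 9.51, 6.40 and 10.7 CPM (0.94 ± 0.22), and Cox6a1 from 58.1, 57.1 and 53.9 to 93.8, 70.8 and 94.3 CPM (0.60 ± 0.17). Atp5a1 rose (0.55 ± 0.16, adjusted p = 0.0432), and Atp5b (0.36 ± 0.19, adjusted p = 0.241) and Cox5a (0.72 ± 0.22, adjusted p = 0.0531) did not pass.

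The members called in subacute EAE had short transcripts, with a median of 0.614 kb where the others had 0.969 kb, and over the 74 members the log2 fold and transcript length had a Spearman correlation of -0.53, given as a description across genes of the same libraries. The count was 3, 2 and 3 without control replicates 1, 2 and 3, 2 without subacute replicate 1, 34 without subacute replicate 2 and 2 without subacute replicate 3. Quantile normalization gave 4 higher and 2 lower (Ndufb2 and Cox4i2), and edgeR 7 higher and 1 lower (Ndufb2). Among other genes of the pathway, 4 of 6 of complex II and cytochrome c rose, led by Sdhd (1.00 ± 0.17, adjusted p = 0.00375), while cytochrome c itself (Cycs) fell (-0.83 ± 0.24, adjusted p = 0.0391), and 11 of 73 genes of the mitochondrial ribosome rose. Between the acute and subacute stages limma called 0 members (0.103% of all genes in either direction), 3 had an unadjusted p under 0.05, edgeR called 0, and 1 was called without acute replicate 1.

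In chronic EAE the member called was Cox4i2, which fell from 11.4, 12.1 and 7.50 to 2.54, 3.05 and 2.57 CPM (log2 fold -1.59 ± 0.23, adjusted p = 0.00694), where 2.46% of all genes were called in either direction. It was at 6.71, 9.53 and 7.07 CPM in acute and 5.38, 7.86 and 5.10 CPM in subacute libraries, with folds that did not pass (-0.36 ± 0.23 and -0.67 ± 0.23). Chronic libraries were below all controls. Mural cell markers moved with it: they summed to 4542 to 5217 CPM in controls, 2967 to 4025 CPM at the acute, 2686 to 3008 CPM at the subacute and 1920 to 2108 CPM at the chronic stage, and 4 of 10 fell at the chronic stage. The part of mural cells in this fall was not tested. The other 73 genes were not called, and the complex I sum was 446 to 509 CPM in chronic and 441 to 453 CPM in control libraries. The stages share 1 control group.

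After stroke, few members passed, all upward. At the acute stage Ndufs8 rose from 21.2, 20.2 and 15.8 to 29.8, 32.5 and 29.5 CPM (log2 fold 0.66 ± 0.14, adjusted p = 0.03) and Cox7b from 27.5, 29.6 and 28.9 to 42.98, 39.3 and 49.7 CPM (0.60 ± 0.13, adjusted p = 0.0367), 2 of 74 where 1.42% of all genes were called in either direction. Acute libraries of both were above all controls. At the subacute stage the same genes were the 2 called, where 7.85% of all genes were, with Ndufs8 at 24.9, 29.5 and 30.9 CPM (0.56 ± 0.14, adjusted p = 0.0249) and Cox7b at 35.7, 42.7 and 43.7 CPM (0.49 ± 0.13, adjusted p = 0.035). Both stages share their controls. The members' median log2 fold was 0.18 at each stage, while that of all genes was -0.11 and -0.14. Mitochondrial rRNA took 23.6 to 31.0% of reads in controls and 35.8 to 38.1% in acute libraries. With it left out, 11 members were higher at the acute and 8 at the subacute stage. Quantile normalization gave 7 higher and 1 lower (Ndufa4l2) at the acute and 8 higher at the subacute stage, and edgeR 4 and 7. At the acute stage, no member passed (0) without control replicate 1 or 3 or acute replicate 1 or 3. At the subacute stage the count was 1 without control replicate 1 or 2 and 0 without control replicate 3 or subacute replicate 2 or 3. In chronic stroke limma called 0 members, as it did of all genes (0%), 1 member had an unadjusted p under 0.05, and edgeR called 0.

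Between the acute and subacute stages of stroke, Ndufa4l2 was the only member called, from 6.28, 12.4 and 7.39 to 19.2, 18.1 and 15.2 CPM (log2 fold 0.98 ± 0.22, adjusted p = 0.0176), where 4.22% of all genes were called in either direction. The stages did not overlap. Controls were at 18.53, 12.7 and 18.04 CPM, and the acute fold of -0.88 ± 0.22 had an adjusted p of 0.0543. Mural cell markers summed to 2495 to 5773 CPM at the acute and 4890 to 6449 CPM at the subacute stage, and their part was not tested. The count was 0 without acute replicate 1 or subacute replicate 1 or 2, and 2 without acute replicate 2 or 3.

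After TBI, 2 members fell at the acute stage, where 5.44% of all genes were called in either direction. Cox7a2l, which joins complexes III and IV into supercomplexes, fell from 79.4, 80.4 and 66.7 to 45.2, 45.6 and 56.1 CPM (log2 fold -0.62 ± 0.12, adjusted p = 0.00858), and Ndufa7 of complex I from 42.2, 40.1 and 34.1 to 27.5, 22.5 and 26.8 CPM (-0.58 ± 0.16, adjusted p = 0.0438). Acute libraries of both were below all controls. Atp5b was higher in each acute library, at 900.4, 858 and 920.2 CPM in controls and 1384, 1211 and 1161 CPM in acute libraries, which did not overlap, but did not pass in limma (0.48 ± 0.15, adjusted p = 0.0678). It was called in edgeR (log2 fold 0.51, adjusted p = 0.0123) and under quantile normalization (0.55, adjusted p = 0.00952). The split of 0 higher and 2 lower was therefore 1 and 2 in edgeR, and 1 and 1 under quantile normalization or with mitochondrial rRNA left out. With the controls of all TBI stages pooled it was also 1 and 2. The complex V sum, most of which is Atp5b, was 1535 to 1650 CPM in controls and 1870 to 2246 CPM in acute libraries, a ratio of 1.25, while the sums of complexes I, III and IV had ratios of 0.948, 0.956 and 0.949. The count of 2 was 1 without control replicate 1 or acute replicate 3, and 0 without control replicate 2 or acute replicate 2.

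In subacute TBI limma called 0 members (1.36% of all genes in either direction), although 67 of 74 had a fold below 0, with a median of -0.27 where all genes had 0.05. With the controls of all TBI stages pooled, 45 of 74 were below 0, with a median of -0.06 where all genes had -0.02, and 0 were called. With its own controls 20 members had an unadjusted p under 0.05, and edgeR called 1, Cox6a1 at -0.66 (adjusted p = 0.0314). Quantile normalization called 3 lower (Cox6a1, Ndufb8 and Uqcrq). The complex IV sum was 614 and 676 CPM in the control libraries and 456 to 536 CPM in the injured ones. In chronic TBI limma called 0 members and 0% of all genes, 0 members had an unadjusted p under 0.05 and edgeR called 0. The members' median log2 fold there was 0.06, -0.07 with pooled TBI controls, and -0.08 under quantile normalization, -0.09 in edgeR and -0.07 with mitochondrial rRNA left out.

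**Figure D5:**
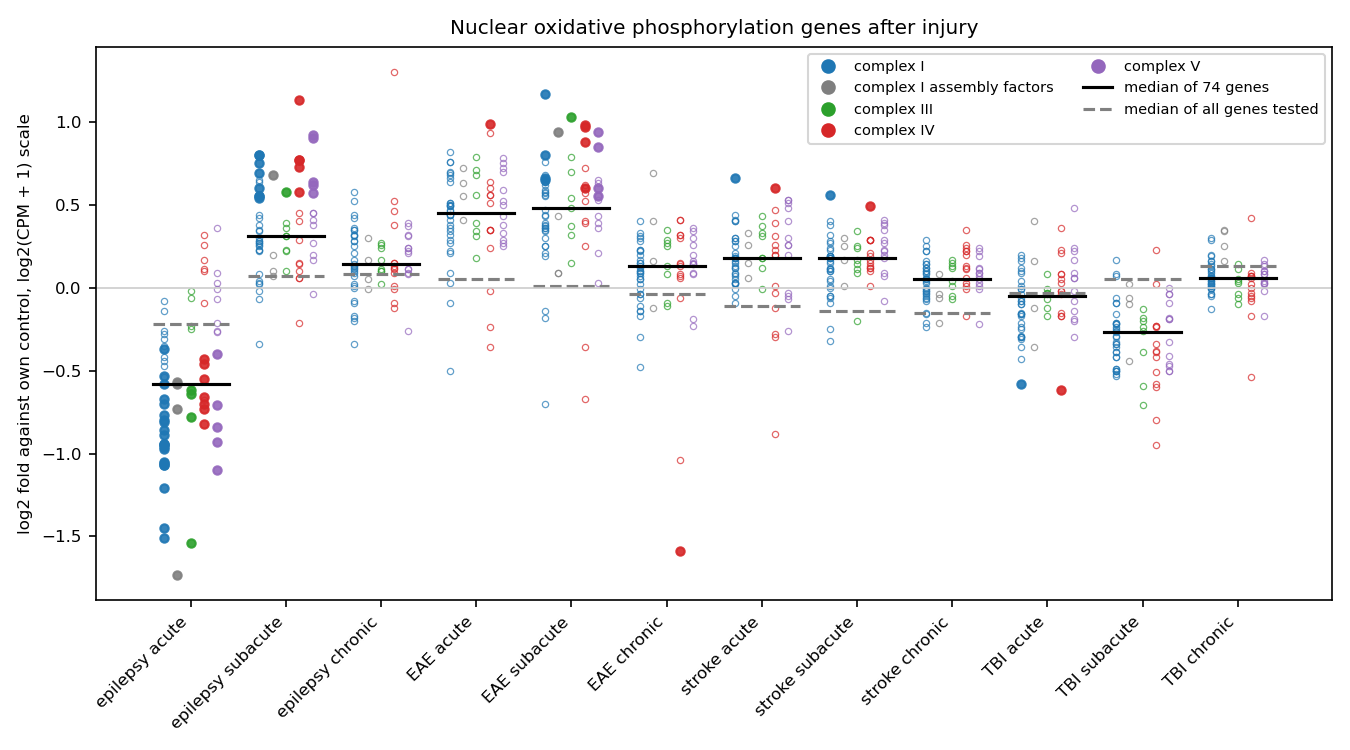
Log2 fold of each member against its own controls (vertical axis) at the stages of the 4 models (horizontal axis), coloured by complex; filled points passed the limma test, black lines are the medians of the 74 members and dashed lines those of all genes tested. The members' median is lowest in acute epilepsy at -0.58 and highest in subacute EAE at 0.48.

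The difference between models was tested itself, with an F test in limma of equal log2 folds in the 4 models. At the acute stage it called 52 of 74 members, where 32.3% of all genes were called: 28 of 32 of complex I, 4 of 4 assembly factors, 4 of 8 of complex III, 7 of 14 of complex IV and 8 of 13 of complex V. Ndufaf3 (adjusted p = 2.63e-07) had log2 folds of -1.73 in epilepsy, 0.41 in EAE, 0.26 in stroke and -0.36 in TBI. Ndufs8 (adjusted p = 4.16e-07) had -0.95, 0.82, 0.66 and 0.18, and Ndufv3 (adjusted p = 8.36e-07) had -1.45, 0.34, 0.12 and -0.29. Epilepsy was lowest in each of these genes. Quantile normalization gave 33 members, and leaving out each library in turn gave 45 to 54. At the subacute stage 23 members were called, where 7.61% of all genes were: 10 of complex I, 3 of complex III, 5 of complex IV and 5 of complex V. Cox6a1 (adjusted p = 0.00119) had log2 folds of 0.15 in epilepsy, 0.60 in EAE, 0.01 in stroke and -0.60 in TBI, Ndufa8 (adjusted p = 0.00171) had 0.65, 1.17, 0.12 and -0.21, and Atp5d (adjusted p = 0.00206) had 0.90, 0.60, 0.38 and -0.50. TBI was lowest in each, against its own 2 control libraries. With the TBI controls pooled, subacute TBI folds were between -0.27 and 0.30 in complex IV and between -0.24 and 0.17 in complex V, all smaller in size than the -0.60 of Cox6a1 and the -0.50 of Atp5d. The F test was not run with pooled controls. The count of 23 was 38 without EAE subacute replicate 2, 10 and 7 without replicates 1 and 2 of the subacute TBI controls, and 14 without TBI subacute replicate 1.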

How the data were processed

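RNA was sequenced from 68 mouse samples. The deposited table gives CPM per gene, which the authors made from read counts; per the submitters' processing notes, the build was mm9 and the tools were featureCounts, Subread and TopHat2 2.0.13, in roles not given in the sources used here. CPM values were whole multiples of 1 read within 0.001 for 100% of 1374704 values above 0, so reads were recovered for edgeR. Members and gene lists were chosen with earlier results of these data known.

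Log2(CPM + 1) values were tested with limma 3.58.1 (trend) in R 4.3.3, with Benjamini-Hochberg adjustment over all genes above 1 CPM in at least 2 libraries (healthy and TBI) or 3 (the others); p under 0.05 was called, over 25 comparisons. Healthy groups and each model were fitted separately. The comparisons of controls and of models (an F test) used all injury libraries. A fold on this scale understates the change of low genes. Genes were named by rule: isoform groups, the genes chosen to stand for each complex, and the members nearest 5 CPM. So were the 3 called members of smallest adjusted p in each direction. Others were named after their values were seen: promoter genes, members singled out beside an alternative, examples of members not called, and further complex IV and V genes. Other pathway lists were read by counts. The cytosolic ribosome list was taken by Rpl and Rps prefixes and holds S6 kinases. In the main fits replicate numbers were not treated as pairs. Same-numbered deviations correlated with a median of 0 to 0.06 across the fits, and other deviations with a median of -0.03 to 0. The lowest same-numbered values were -0.08 to -0.69 and the highest 0.2 to 0.48.

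Alternatives were edgeR 4.0.16 quasi-likelihood tests on recovered reads, a pseudocount of 0.1, no filter, quantile normalization, mitochondrial rRNA left out, a replicate block, pooled TBI controls, brain endo in place of brain vascular cells, and each library left out. The test scripts were tested on simulated data. Figures and tables used Python 3.11.15, pandas 2.3.3, numpy 2.4.6 and matplotlib 3.10.9.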

Additional observations from a re-analysis of the deposited data

Results flagged for a closer look

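Differences between the 4 injury models under the same contrast were found by the F test itself. At the acute stage 52 of the 74 members differed between models, among them Ndufaf3 (adjusted p = 2.63e-07 in limma), Ndufs8 (adjusted p = 4.16e-07) and Ndufv3 (adjusted p = 8.36e-07), each lowest in epilepsy. At the subacute stage 23 members differed, among them Cox6a1 (adjusted p = 0.00119 in limma), Ndufa8 (adjusted p = 0.00171) and Atp5d (adjusted p = 0.00206), each lowest in TBI against its own controls. With the TBI controls pooled, subacute TBI folds were at lowest -0.27 in complex IV and -0.24 in complex V, where Cox6a1 and Atp5d had -0.60 and -0.50 with their own controls. EAE libraries came from spinal cord and the others from brain, so region and model cannot be told apart in these differences.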

How the results depend on the processing

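Of 155 recomputed counts of members called (each library left out is given apart), 113 stayed within 1.5 times, 40 moved further and 2 reversed. In edgeR the counts were 0 in lung, 24 in liver, 4 and 22 for brain vascular cells against organs and brain endo, 0 and 8 in acute and subacute EAE, 4 and 7 in acute and subacute stroke, and 1 in subacute TBI. With mitochondrial rRNA left out they were 16 in liver, 4 and 26 for brain vascular cells against organs and brain endo, 0 in acute EAE, 11 and 8 in acute and subacute stroke, and 1 in subacute TBI. Without the filter they were 4 in heart, 3 in liver, 4 for brain vascular cells against brain endo, 0 and 6 in acute and subacute EAE, 0 in acute stroke, 0 between stroke stages and 1 in acute TBI. With a pseudocount of 0.1 the count in lung was 0. Under quantile normalization they were 22 in liver, 4 and 21 for brain vascular cells against organs and brain endo, 28 in acute epilepsy, 0, 6 and 2 in acute, subacute and chronic EAE, 8 and 8 in acute and subacute stroke, 3 in subacute TBI and 33 for differences between models at the acute stage. With the replicate block, used as an alternative only, the counts were 11 in heart and 14 for brain vascular cells against whole brain. They were 2 in chronic EAE and 1 in acute TBI, and the block moved no other of the 25 counts beyond 1.5 times. With brain endo in place of brain vascular cells the counts reversed, to 24 against organs and 22 against whole brain, and the log2 fold of Cox4i2 against organs was -0.07. Fewer genes or libraries entered some of these fits, and the cause of each move was not tested. The share of all genes called in these alternatives is not given here, so their counts are not read as traits of the members. Leaving out each library gave 0 to 9 in heart, 0 to 1 in lung, 1 (lower, without liver replicate 1) to 10 in liver, 1 to 26 for brain vascular cells against brain endo and 11 to 37 against whole brain, 11 to 31 in subacute and 0 to 1 in chronic epilepsy, 0 to 5 in acute and 2 to 34 in subacute EAE with 0 to 1 between them, 0 to 3 in acute and 0 to 2 in subacute stroke with 0 to 2 between them, 0 to 2 in acute TBI, and 7 to 38 for differences between models at the subacute stage. Of 1446 recomputed values of named members, 1245 kept direction and side of the threshold, 190 lost the call, 10 gained it and 1 reversed. Members near 5 CPM have the fewest reads behind them, and groups hold 2 to 4 libraries.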

Other observations

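Genes that act on oxidative phosphorylation from outside were counted in the same comparisons. Of 9 tested assembly factors of complex IV, 3 fell and 1 rose in acute epilepsy, where 30.9% of all genes fell and 11.6% rose, so the count is near that share. Cox15, which makes heme a for complex IV, fell (log2 fold -1.03 ± 0.17, adjusted p = 0.000165 in limma), as did the copper chaperone Cox17 (-0.95 ± 0.17, adjusted p = 0.000446), and Cox19 rose (0.77 ± 0.17, adjusted p = 0.00183). From the acute to the subacute stage 5 of 9 rose, with Cox15 at 1.44 ± 0.17 (adjusted p = 6.52e-06). Of 10 regulators of mitochondrial biogenesis, 2 fell and 1 rose in acute epilepsy, no more than the shares over all genes: Tfb1m, a methyltransferase of mitochondrial rRNA, fell (-1.34 ± 0.32, adjusted p = 0.00294), as did Esrra (-0.83 ± 0.25, adjusted p = 0.014), and Yy1 rose (0.54 ± 0.14, adjusted p = 0.00519).

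In spinal cord controls 4 of these 10 regulators were lower than in brain controls and 2 higher, where 19.3% of all genes were lower and 26.1% higher, among them Tfam, which packs mitochondrial DNA (-0.60 ± 0.15, adjusted p = 0.00101), and Yy1, higher (0.88 ± 0.20, adjusted p = 0.000367). Of 92 tested genes with Rpl or Rps symbols, 36 were lower and 14 higher there, beside the same shares over all genes, with Rpl41 at -1.03 ± 0.15 (adjusted p = 7.25e-07) and Rpl24 at 1.07 ± 0.12 (adjusted p = 8.34e-09). In acute epilepsy 16 of 91 such genes rose and 5 fell, beside 11.6% and 30.9% of all genes; the latter included the kinases Rps6ka1 (-1.24 ± 0.16, adjusted p = 2.24e-05) and Rps6kc1 (-1.24 ± 0.21, adjusted p = 0.000285), which are not ribosomal proteins.

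As a share per kilobase of its pair, Ndufa4l2 was 18.1 ± 1.17% (SD, n = 3) in EAE controls, 8.34 ± 1.57% at the acute, 7.57 ± 0.626% at the subacute and 7.95 ± 2.55% at the chronic stage. A share also falls when the partner rises. Ndufa4 rose at the acute (log2 fold 0.99 ± 0.22, adjusted p = 0.0499 in limma) and subacute stage (0.98 ± 0.22, adjusted p = 0.0147). Ndufa4l2 itself did not pass at the acute (-0.24 ± 0.27, adjusted p = 0.724), subacute (-0.36 ± 0.27, adjusted p = 0.399) or chronic stage (-1.04 ± 0.27, adjusted p = 0.0591). Cox4i2 was 14.8 ± 2.30% of its pair in EAE controls, 9.57 ± 3.23% at the acute, 6.74 ± 2.88% at the subacute and 3.66 ± 0.806% at the chronic stage. In stroke the share of Ndufa4l2 was 23.1 ± 3.60% in controls, 10.9 ± 4.32% at the acute and 22.6 ± 1.77% at the subacute stage. In the same libraries mural cell markers summed to 4542 to 5217 CPM in EAE controls, 2967 to 4025 CPM at the acute, 2686 to 3008 CPM at the subacute and 1920 to 2108 CPM at the chronic stage, and in stroke to 3867 to 5739 CPM in controls, 2495 to 5773 CPM at the acute and 4890 to 6449 CPM at the subacute stage. The part of mural cells was not tested, and the shares are descriptions, without a test. In controls of acute TBI the libraries of Ndufa4l2 lay far apart, from 3.08 to 24.9%.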
